A study of Mus musculus with 15 samples.

Results

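Mt1 and Mt2, the genes of the metallothioneins MT-I and MT-II, were followed through 15 transcriptomes of hematopoietic stem cells (HSC), together with Mtf1, the zinc sensor that switches them on, and Slc30a1, the zinc exporter ZnT1 that answers to the same sensor. These 4 genes of the 16154 in the count table were taken by name, and all 4 were present. Mt1 and Mt2 were selected on their measured counts in these libraries. Which comparison led to the choice was not stated, so their values are given as a description with no test in any comparison. Mtf1 and Slc30a1 were added for their role, though with earlier results of these data known, and their values come with the test over all genes.

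By the labels, cells came from female C57BL/6 mice in 3 groups of 5 animals, with 1 library per mouse. Young mice were 6 to 12 weeks old and aged mice 20 to 24 months old, and neither group received treatment. The NR-treated aged mice were also 20 to 24 months old and drank nicotinamide riboside (NR), a precursor of NAD, at 3 mg/ml for 2 months. HSC were sorted from lineage-depleted bone marrow on Sca-1, cKit, CD48 and CD150, and 20000 to 25000 cells per mouse entered a 3′ biased library with unique molecular identifiers.

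Metallothioneins are small cysteine-rich proteins that bind zinc, copper and other metals, hold a store of zinc in the cell and react with oxidants. When free zinc rises, the transcription factor MTF1 binds metal response elements (MREs) in the promoters of Mt1, Mt2 and Slc30a1. Glucocorticoids, oxidants and cytokines of the IL-6 family are also known inducers of Mt1 and Mt2. The protein of Slc30a1 exports zinc across the plasma membrane, other ZnT proteins (the Slc30a genes) move zinc out of the cytosol into organelles or vesicles or across the plasma membrane, and ZIP proteins (the Slc39a genes) move it into the cytosol.

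Both metallothionein genes lie on the forward strand of chromosome 8 of the mouse build GRCm38. Mt2 (ENSMUSG00000031762) spans chr8:94172664-94173568 and Mt1 (ENSMUSG00000031765) spans chr8:94179082-94180327, with 5513 bases between them. Mtf1 (ENSMUSG00000028890) lies at chr4:124802104-124849800 and Slc30a1 (ENSMUSG00000037434) at chr1:191906767-191913247, both on the forward strand. No stretch of 72 bases, the read length, of the annotated Mt1 transcripts (1314 stretches) or Mt2 transcripts (532) was found in the transcripts of another gene.

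The promoters of Mt1 and Mt2 are shown because they carry the elements that the zinc sensor reads. Each sequence covers 250 bases before the RefSeq start and 50 bases from the start onward, from RefSeq on GRCm38.p6, at chr8:94178839-94179138 for Mt1 and chr8:94172368-94172667 for Mt2, both on the forward strand. The start sites of these windows differ from the gene starts given above, since RefSeq places the start of Mt2 at 94172618, 46 bases before the GENCODE start, and that of Mt1 at 94179089, 7 bases after it. The RefSeq starts of Mtf1 and Slc30a1 lie 445 and 14 bases after their GENCODE starts. Capitals mark each match to the MRE core, spelled TGCACNC or TGCGCNC and searched on both strands.
Mt1: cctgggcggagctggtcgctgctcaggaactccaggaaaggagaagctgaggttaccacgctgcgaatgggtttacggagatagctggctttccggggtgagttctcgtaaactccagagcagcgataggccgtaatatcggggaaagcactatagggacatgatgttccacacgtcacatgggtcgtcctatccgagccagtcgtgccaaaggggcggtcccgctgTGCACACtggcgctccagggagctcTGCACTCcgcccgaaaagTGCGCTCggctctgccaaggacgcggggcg
Mt2: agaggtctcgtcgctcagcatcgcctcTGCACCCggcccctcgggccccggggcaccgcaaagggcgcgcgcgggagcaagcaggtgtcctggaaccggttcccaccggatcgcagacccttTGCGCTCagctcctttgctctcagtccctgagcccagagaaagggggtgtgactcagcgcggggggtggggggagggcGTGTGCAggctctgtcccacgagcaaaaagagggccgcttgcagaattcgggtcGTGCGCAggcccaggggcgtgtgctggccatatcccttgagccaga

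Within its window, Mt1 had 3 MRE matches, all on the forward strand. With the RefSeq start site as position 0, they ran from -23 to -17 (TGCACAC), from 2 to 8 (TGCACTC) and from 20 to 26 (TGCGCTC). Mt2 had 4 matches, on the forward strand from -223 to -217 (TGCACCC) and from -128 to -122 (TGCGCTC), and on the reverse strand from -50 to -44 (TGCACAC) and from 4 to 10 (TGCGCAC). Among 32851 mouse promoter windows of the same length, 1.97% held at least 3 matches and 0.517% held at least 4, whereas 25.7% held at least 1. Slc30a1 held 2 matches (7.11% of all windows held at least 2) and Mtf1 held none, which says only that these letters were not in its window. The core of the antioxidant response element (ARE), TGACNNNGC on either strand, was found in 12.4% of all windows. It occurred once each in Mt2 and Slc30a1 and not in Mt1 or Mtf1, and it overlapped no MRE match in these windows. A match is a description of the sequence and was not tested as a binding site. Positions are relative to the RefSeq start, and these 3′ biased libraries do not show where transcription starts in HSC. Matches outside the windows were not counted, so the numbers are not totals for a gene and do not rank Mt1 against Mt2.

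**Figure D1:**
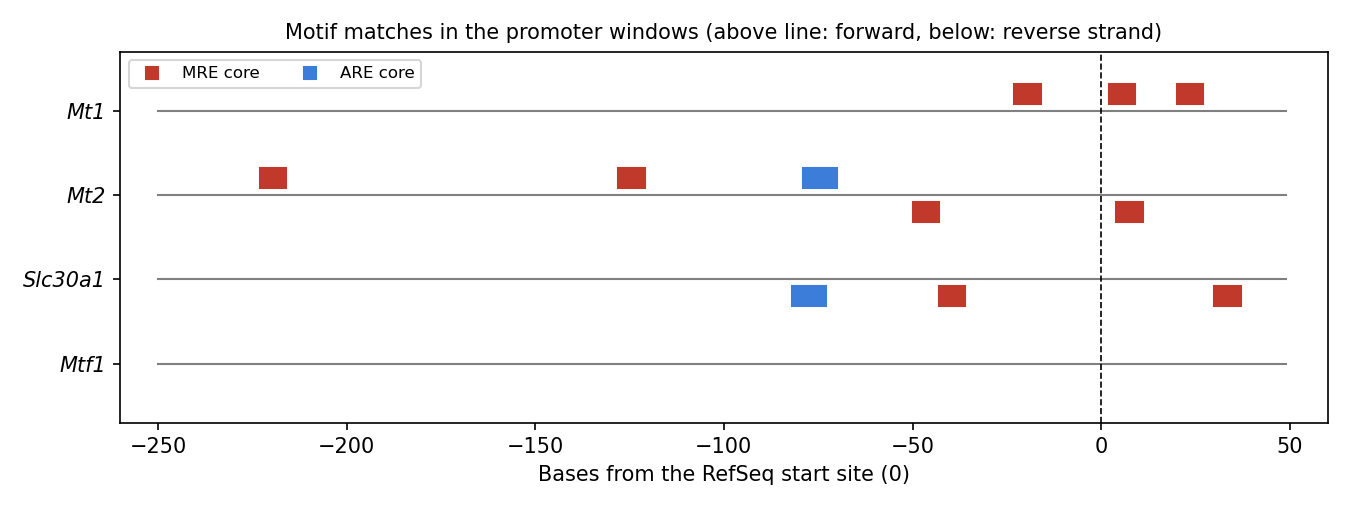
Motif matches in the promoter windows of the 4 genes; the x axis gives bases from the RefSeq start site (dashed line, position 0), red boxes are matches to the MRE core and blue boxes to the ARE core, above the line on the forward strand and below it on the reverse strand. Within these windows, Mt1 carries 3 MRE matches, Mt2 carries 4, Slc30a1 carries 2 and Mtf1 none.

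The libraries differed in depth and in content before any comparison. Total counts were 2122221 to 3631395 in young, 764119 to 13318989 in aged and 2486399 to 3595384 in NR-treated aged HSC. The shallowest library was aged 2, where 3 counts, taken as the limit below which a gene could not be told from absent, equalled 3.89 CPM (counts scaled to a common library size). Young 1 and young 5 held 104 and 108 CPM of 4 Y-linked genes although all mice were labelled female, against 0.757 to 3.16 CPM in the other libraries. Both also held Xist, the RNA of the inactive X chromosome, at 436 and 482 CPM, within the 296 to 919 CPM of the other 13 libraries. These values go against the labels of the libraries called young 1 and young 5, as a female mouse or as a single mouse. All 10 HSC markers on the list (among them Procr, Mecom and Fgd5) were measured, with summed levels of 1590 to 2000 CPM in young, 1880 to 2420 CPM in aged and 1710 to 2200 CPM in NR-treated aged HSC. At an adjusted p under 0.05, 5 of these markers were higher in aged than in young HSC (9.68% of all genes were). In NR-treated aged against young HSC 3 were higher (2.56% of all genes), and against aged HSC 1 was lower (4.18% of all genes). Markers listed for other cells, 47 of 53 measured, summed to 1470 to 12600 CPM in young HSC, with the highest value in young 3. They summed to 10200 to 12800 CPM in aged and to 1270 to 2650 CPM in NR-treated aged HSC. Megakaryocyte markers made up 560 to 1490 CPM of the sums in NR-treated aged HSC. Such sums do not show which cells held the RNA. In bulk RNA, a change in the number of cells that express a gene and a change in its RNA per cell cannot be told apart.

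Mt1 was at a lower level in young HSC than in both aged groups. Its level in CPM was 48.4, 78.8, 79.0, 51.2 and 43.2 in young 1 to 5, which rested on 138 to 196 counts per library. In aged 1 to 5 it was 536, 671, 644, 502 and 631 CPM. In NR-treated aged 1 to 5 it was 478, 529, 408, 454 and 548 CPM. The highest young library lay far below the lowest library of either aged group, and the ranges of the aged groups overlapped each other between 502 and 548 CPM.

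The group means of Mt1 were 60.1 ± 17.4 CPM in young, 597 ± 73.6 in aged and 484 ± 56.7 in NR-treated aged HSC (SD, n = 5 each). The fitted difference between aged and young HSC was 3.32 on the log2 scale (SE 0.17), or 9.97-fold, and that between NR-treated aged and young HSC was 3.02 (SE 0.17), or 8.09-fold. Ranked by size among 16154 genes, Mt1 stood 71st from the highest in the first of these comparisons and 61st in the second. The NR-treated aged group differed from the aged group by -0.30 (SE 0.15).

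Mt2 showed the same order of groups with wider steps. Its level was 3.51, 6.43, 7.18, 2.18 and 2.43 CPM in young 1 to 5, from only 6 to 16 counts per library. In aged 1 to 5 it was 84.8, 122, 97.2, 104 and 99.4 CPM, and in NR-treated aged 1 to 5 it was 63.6, 76.3, 45.5, 60.6 and 91.5 CPM. No young library came near either aged group, and of the NR-treated libraries only NR-treated aged 5 reached into the range of the aged libraries, above aged 1.

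Group means of Mt2 were 4.35 ± 2.32 CPM in young, 101 ± 13.5 in aged and 67.5 ± 17.3 in NR-treated aged HSC (SD, n = 5 each). The fitted difference on the log2 scale was 4.59 (SE 0.26) between aged and young HSC, or 24.1-fold, and 4.02 (SE 0.26) between NR-treated aged and young HSC, or 16.2-fold. Mt2 stood 19th and 15th from the highest of all genes in these comparisons. NR-treated aged HSC lay below aged HSC by a fitted -0.57 (SE 0.19), 1241st from the lowest of all genes. Each pair of comparisons shares the libraries of 1 group, so the values are not independent of each other.

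**Figure D2:**
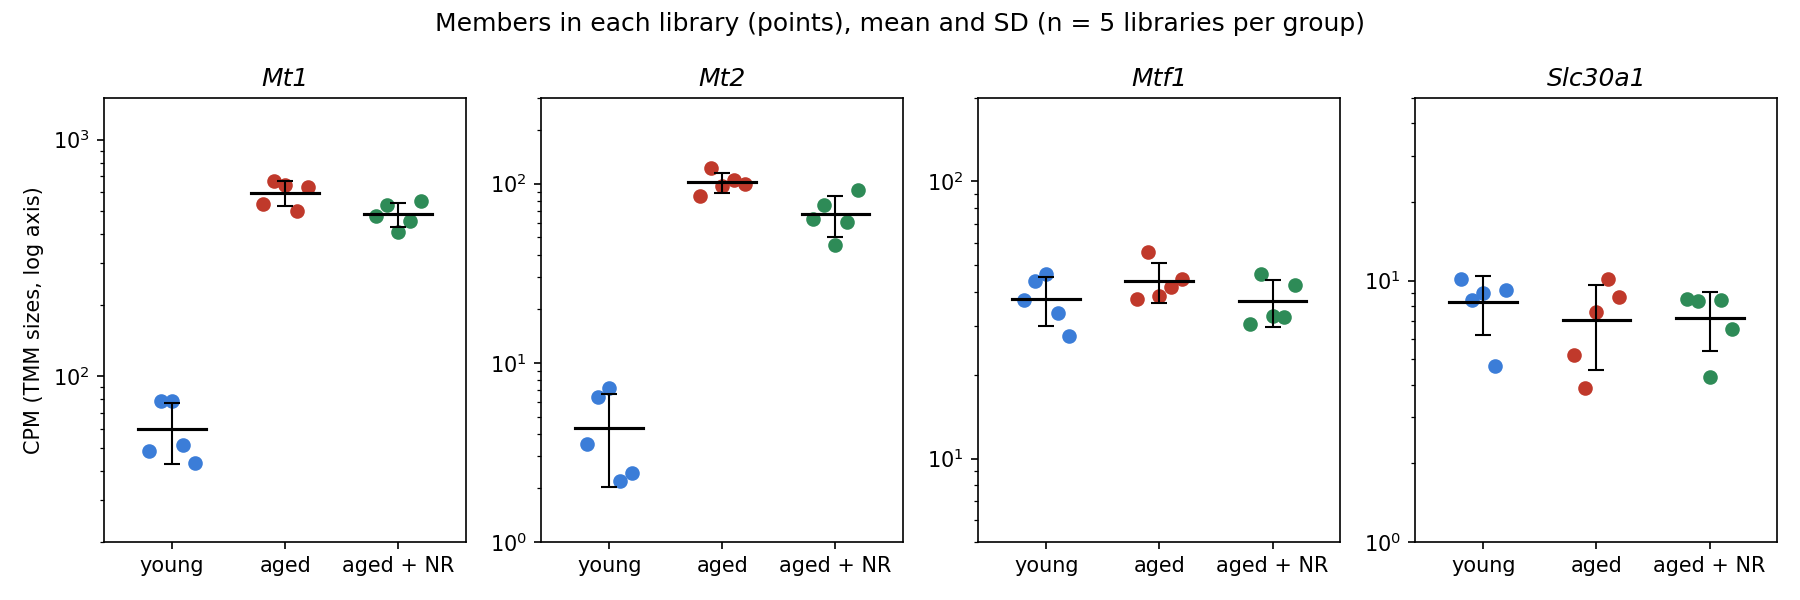
Levels of the 4 genes in CPM (log axis, own range in each panel) in young (blue), aged (red) and NR-treated aged (green) HSC; points are libraries, horizontal lines group means and bars the SD (n = 5). Mt1 and Mt2 in all 5 young libraries lie below all 10 libraries of the aged groups, whereas the 3 groups overlap for Mtf1 and Slc30a1.

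For scale, 9.68% of all genes were called higher in aged than in young HSC at an adjusted p under 0.05 and 9.63% lower, and in 12.4% the libraries of the groups did not overlap. For NR-treated aged against aged HSC the shares were 3.88% higher, 4.18% lower and 8.6% without overlap. For NR-treated aged against young HSC they were 2.56%, 1.91% and 4.74%. Both metallothioneins were free of overlap with young HSC in both aged groups, a property of the counts on which they were selected, and neither was free of overlap between aged and NR-treated aged HSC.

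The libraries that stood apart were also left out. Without young 1 and 5, the difference between aged and young HSC was 3.10 for Mt1 and 4.28 for Mt2 on the log2 scale, and without young 3 it was 3.44 and 4.83. Without the shallow aged 2 it was 3.27 and 4.53. The NR-treated aged values against young HSC, without young 1 and 5, were 2.80 for Mt1 and 3.71 for Mt2. Library totals in place of effective sizes moved the median of all genes by over 0.1 (from -0.03 to -0.16 between aged and young HSC, and from 0.02 to 0.16 between NR-treated aged and aged HSC). On that scale Mt1 differed by -0.17 and Mt2 by -0.43 between NR-treated aged and aged HSC.

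Markers listed for other cells are given beside these differences. Young 3 held 12620 CPM of such markers, within the range of the aged libraries, and 86.2 CPM of Mt1 and Mt2 together. By cell type it did not match them, since its neutrophil markers (5309 CPM) and monocyte and macrophage markers (3093 CPM) lay above all aged libraries, its erythroid markers (2637 CPM) below all of them and its B cell markers (804 CPM) below 4 of 5. NR-treated aged 2 held the fewest, 1273 CPM, with 606 CPM of Mt1 and Mt2 together. All 8 neutrophil and all 8 erythroid markers were lower in NR-treated aged than in aged HSC at an adjusted p under 0.05 (4.18% of all genes were). Neutrophil markers summed to 23.7 to 5310 CPM in young, 1040 to 1670 in aged and 15.7 to 167 in NR-treated aged HSC, and erythroid markers to 132 to 2650, 3230 to 6510 and 68.7 to 558 CPM. B cell markers (7 of 8 measured) summed to 104 to 804, 597 to 4240 and 85.6 to 161 CPM. Monocyte and macrophage markers (8 of 8) summed to 384 to 3090, 866 to 2230 and 305 to 542 CPM. In NR-treated aged HSC, Mt1 and Mt2 together were at 454 to 640 CPM beside marker sums of at most 2650 CPM. The part of other cells in the metallothionein differences was not tested for any of the 3 comparisons. Megakaryocyte markers (6 of 6) summed to 596 to 727, 749 to 1130 and 560 to 1490 CPM, and T cell markers (4 of 6) to 2.11 to 45.4, 5.19 to 15.6 and 1.10 to 6.26 CPM. Stroma and endothelium were represented by 6 of 9 markers with 82.1 to 119 CPM in young, 77.3 to 106 CPM in aged and 67.5 to 90.0 CPM in NR-treated aged HSC.

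**Figure D3:**
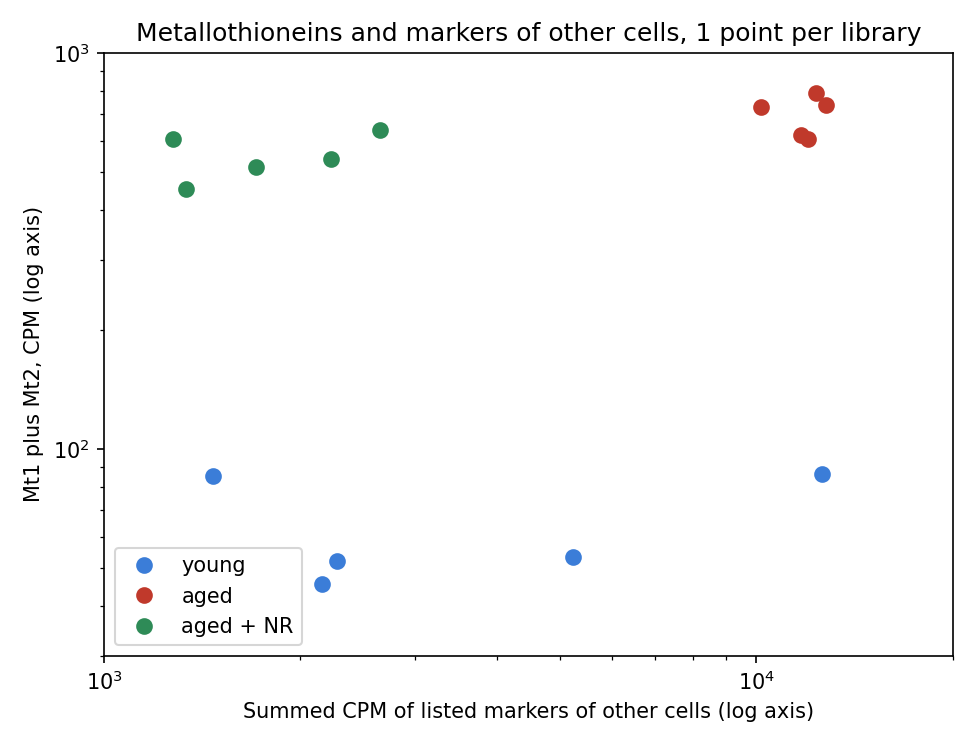
Summed level of Mt1 and Mt2 against the summed level of 47 markers listed for other cells, 6 of them for megakaryocytes, both in CPM on log axes, with 1 point per library in young (blue), aged (red) and NR-treated aged (green) HSC. Young 3 lies with the aged libraries on the x axis at 12620 CPM and with the young libraries on the y axis at 86.2 CPM, and the NR-treated libraries lie at 1270 to 2650 CPM on the x axis and 454 to 640 CPM on the y axis. By cell type the markers of young 3 did not match those of the aged libraries, and the part of other cells was not tested.

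The balance of the metallothioneins is given beside their sum. Together they took 0.00661% of all counts in young, 0.0659% in aged and 0.057% in NR-treated aged HSC, as group means. Mt2 made up 6.41% ± 1.71 of the summed counts of both genes in young, 14.6% ± 1.69 in aged and 12.1% ± 1.56 in NR-treated aged HSC (SD, n = 5 each). The young libraries ranged from 4.08% in young 4 (6 of 147 counts, exact 95% interval 1.51% to 8.67%) to 8.33% in young 3 (16 of 192, 4.84% to 13.2%). The lowest share in an aged library was 13.1% in aged 3 (exact 95% interval 12.4% to 13.8%) and the lowest in an NR-treated library was 10.0% in NR-treated aged 3 (8.36% to 11.9%). Each young share was below each share in the aged groups, but intervals overlapped. Every young interval overlapped that of NR-treated aged 3. The interval of young 3 overlapped those of all libraries of the aged groups except aged 4 (15.9% to 18.5%). These intervals cover counting error only. The share is computed from the counts on which the genes were selected, so it is a description as well.

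Mtf1, the zinc sensor, did not pass the test in any comparison. It was measured at 37.2, 43.8, 46.2, 33.4 and 27.8 CPM in young 1 to 5, at 37.7, 55.8, 38.5, 41.6 and 44.6 CPM in aged 1 to 5, and at 30.5, 46.5, 32.7, 32.5 and 42.2 CPM in NR-treated aged 1 to 5. The 3 groups overlapped throughout, with means of 37.7 ± 7.55, 43.6 ± 7.31 and 36.9 ± 7.04 CPM (SD, n = 5 each). The log2 difference between aged and young HSC was 0.19 (95% interval -0.14 to 0.51, adjusted p = 0.461, edgeR quasi-likelihood test). It was -0.21 between NR-treated aged and aged HSC (-0.52 to 0.11, adjusted p = 0.449) and -0.02 between NR-treated aged and young HSC (-0.34 to 0.30, adjusted p = 0.973).

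Slc30a1, the zinc exporter gene that shares the sensor with the metallothioneins, did not pass the test either. It was measured at 10.2, 8.44, 8.98, 4.72 and 9.17 CPM in young 1 to 5, at 5.20, 3.89, 7.61, 10.1 and 8.64 CPM in aged 1 to 5, and at 8.47, 8.35, 4.28, 8.40 and 6.53 CPM in NR-treated aged 1 to 5. The value in aged 2 rested on 3 counts and could not be told from absence. All groups overlapped, with means of 8.30 ± 2.10, 7.09 ± 2.53 and 7.21 ± 1.83 CPM (SD, n = 5 each). The log2 difference was -0.15 between aged and young HSC (95% interval -0.70 to 0.39, adjusted p = 0.747, edgeR quasi-likelihood test), -0.04 between NR-treated aged and aged HSC (-0.58 to 0.50, adjusted p = 0.943) and -0.20 between NR-treated aged and young HSC (-0.75 to 0.36, adjusted p = 0.775). A missed threshold does not show that the groups were equal.

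The other zinc genes were counted next, from a list set with earlier results of these data known. Of 25 zinc genes listed (10 Slc30a exporters, 14 Slc39a importers and Mtf1), 18 were in the table, and only Slc30a7 passed the test. In aged against young HSC 1 of 18 was higher and 0 were lower (9.68% and 9.63% of all genes), with a median log2 difference of -0.10 against -0.03 for all genes. In NR-treated aged against aged HSC 0 of 18 passed by the edgeR quasi-likelihood test (3.88% of all genes were higher and 4.18% lower), with a median of -0.04 against 0.02. At an unadjusted p under 0.05 there was 1 of 18, Slc39a14, against 4048 of all 16154 genes. It was called at an adjusted p under 0.05 in 6 of 24 alternatives, among them edgeR's likelihood ratio test, DESeq2 and limma-voom. In NR-treated aged against young HSC 1 was higher and 0 were lower (2.56% and 1.91% of all genes), with a median of 0.03 against -0.0046 for all genes. Over 18 genes these counts are too small to set the list apart from the shares over all genes.

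Slc30a7 encodes ZnT7, which loads zinc into the Golgi and early secretory pathway. It was measured at 30.2, 33.8, 37.3, 29.8 and 30.5 CPM in young 1 to 5, at 43.1, 38.9, 44.0, 39.5 and 48.4 CPM in aged 1 to 5, and at 45.8, 44.7, 44.0, 52.6 and 42.2 CPM in NR-treated aged 1 to 5. Both aged groups lay above all young libraries, by a narrow margin for young 3 and aged 2. It rose by 0.42 on the log2 scale in aged against young HSC (SE 0.12, adjusted p = 0.0187, edgeR quasi-likelihood test) and by 0.51 in NR-treated aged against young HSC (SE 0.12, adjusted p = 0.0159), while the difference between the aged groups was 0.09 (adjusted p = 0.667). The calls were lost without young 1 and 5, at adjusted p = 0.116 and 0.108, and the first was also lost without aged 5 (0.0586) and the second without NR-treated aged 4 (0.0543). On library totals the first had an adjusted p of 0.0862 and on counts thinned to the smallest total the values were 0.284 and 0.33. Its promoter window held no MRE match. Among exporters that did not pass, the windows of Slc30a6 and Slc30a9 held none either, while Slc30a5 held 1 and Slc30a4 held 3.

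Slc39a14, the gene of the importer ZIP14, was at 5.43 ± 2.33 CPM in young, 4.27 ± 1.16 in aged and 8.17 ± 1.58 in NR-treated aged HSC (SD, n = 5 each). Its log2 difference between NR-treated aged and aged HSC was 0.93 (95% interval 0.33 to 1.53, adjusted p = 0.0642, edgeR quasi-likelihood test), and NR-treated aged 3 (5.44 CPM) overlapped aged 1 (6.07 CPM). The value in aged 2 rested on 3 counts. Among the other exporters, Slc30a6 differed by 0.58 between aged and young HSC (adjusted p = 0.106) and Slc30a9 by -0.45 (adjusted p = 0.129). Slc30a4 and Slc30a5 completed the exporters in the table, at means of 8.80 to 12.7 and 40.6 to 45.7 CPM over the 3 groups. Among importers, Slc39a13, of the secretory pathway, was free of overlap between young (19.7 to 28.8 CPM) and aged HSC (31.1 to 37.0 CPM) with a log2 difference of 0.38 (adjusted p = 0.0849). Slc39a5 differed by -0.79 (adjusted p = 0.151) in the same comparison, and Slc39a8, the gene of ZIP8, by -0.74 between NR-treated aged and young HSC (adjusted p = 0.132). Slc39a1, Slc39a3, Slc39a4, Slc39a6, Slc39a9, Slc39a10 and Slc39a11 did not pass in any comparison. Mt3, Mt4, 4 exporters and 3 importers were not in the filtered count table under these names, so no values are given for them.

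**Figure D4:**
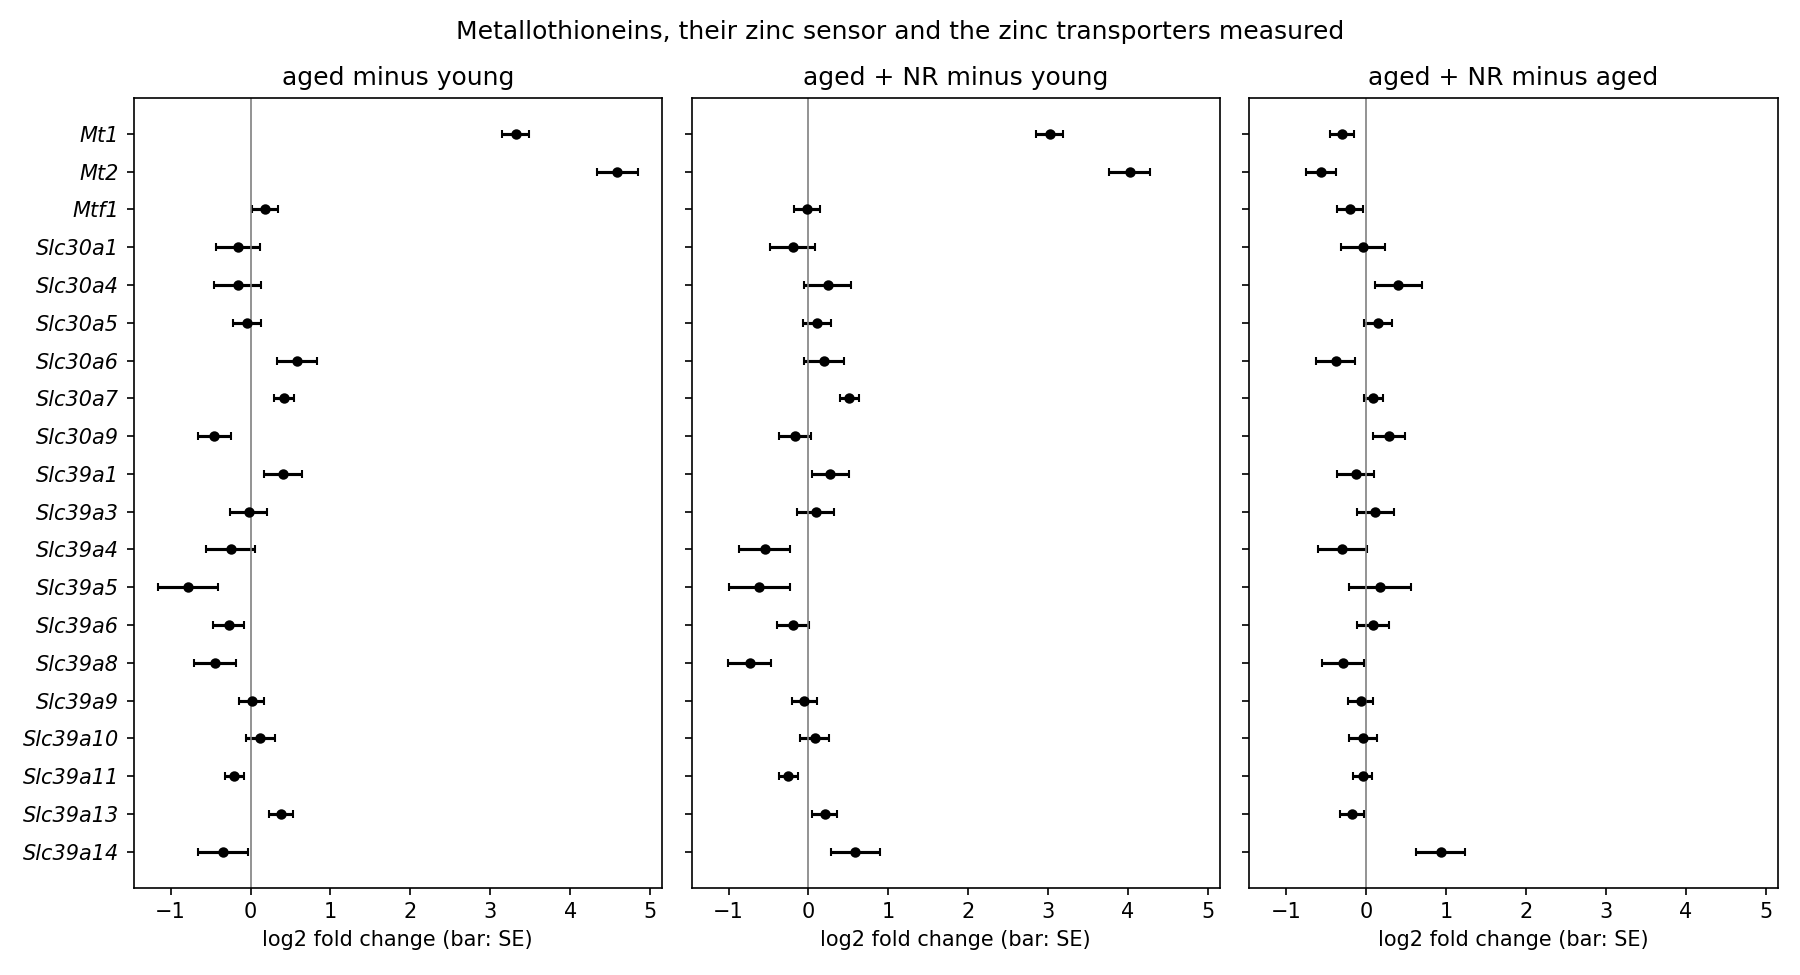
Fitted log2 fold change (points) with SE (bars) of 20 genes, the metallothioneins, Mtf1 and the zinc transporters in the table, in 3 comparisons on 1 common x axis. Mt1 and Mt2 lie at 3.32 and 4.59 in aged against young HSC and at 3.02 and 4.02 in NR-treated aged against young HSC, and every zinc transporter lies between -0.79 and 0.93 in all 3 panels.

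Genes of 5 other systems tied to metallothioneins were counted in the same fit, from lists also set with earlier results of these data known. The shares of all genes to set beside these counts are 9.68% higher and 9.63% lower in aged against young HSC, 3.88% and 4.18% in NR-treated aged against aged HSC, and 2.56% and 1.91% in NR-treated aged against young HSC. Among copper genes (10 of 11 measured), Slc31a1, the copper importer CTR1, and Commd1 rose in aged against young HSC by 0.64 (adjusted p = 0.00193) and 0.43 (adjusted p = 0.0122), and both fell in NR-treated aged against aged HSC by 0.44 (adjusted p = 0.0391) and 0.60 (adjusted p = 0.0059). The fall of Slc31a1 was called in 13 of 25 alternatives. The other 8 copper genes passed in neither comparison and none of the 10 passed between NR-treated aged and young HSC. Among 12 iron genes, 2 were higher and 1 lower in aged than in young HSC, with Slc25a37, the mitochondrial iron importer of developing red cells, at 0.65 (adjusted p = 0.00789). It fell by 0.95 in NR-treated aged against aged HSC (adjusted p = 0.00309), where erythroid markers were also lower. Tfr2, a transferrin receptor, differed by -0.36 (adjusted p = 0.0269) and 0.45 (adjusted p = 0.0196) in these comparisons, and Fth1 of ferritin by 0.33 in the first (adjusted p = 0.0413). The call of Fth1 held in 10 of 25 alternatives. Steap3 differed by -1.47 between NR-treated aged and young HSC (adjusted p = 0.0402, edgeR quasi-likelihood test). It rested on only 1 to 8 counts per NR-treated library, and its call held in 8 of 24 alternatives.

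Known inducers of metallothioneins other than zinc gave mixed counts. Of 10 glucocorticoid response genes, Tsc22d3 (GILZ) was higher in aged than in young HSC by 0.92 (adjusted p = 0.00276) and fell by 0.89 in NR-treated aged against aged HSC (adjusted p = 0.0112). Per1, a clock gene, fell by 0.70 in aged against young HSC (adjusted p = 0.0476), a call that held in 13 of 25 alternatives. Dusp1, a phosphatase of MAP kinases, fell by 1.51 in NR-treated aged against aged HSC (adjusted p = 0.00526) and fell by 1.14 against young HSC (adjusted p = 0.0199). The receptor gene itself, Nr3c1, did not pass in any comparison (adjusted p 0.415 to 0.836).

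Of 11 genes of the oxidant response, 3 were higher and 2 lower in aged than in young HSC. Srxn1 (sulfiredoxin) rose by 0.68 (adjusted p = 0.00832) and Prdx1 (peroxiredoxin) by 0.49 (adjusted p = 0.00755), while Hmox1 (heme oxygenase) fell by 1.21 (adjusted p = 0.0312). Hmox1 rested on 7 to 23 counts per young and 0 to 24 per aged library. Nfe2l2, the gene of the regulator Nrf2 itself, rose by 0.41 (adjusted p = 0.0206, edgeR quasi-likelihood test), a call that held in 22 of 25 alternatives. It differed by -0.36 between NR-treated aged and aged HSC (adjusted p = 0.0674, same test). In NR-treated aged against aged HSC 0 were higher and 2 were lower, where Gsr (glutathione reductase) differed by -0.87 (adjusted p = 0.0295) and Prdx1 by -0.40 (adjusted p = 0.0417). Of 25 alternatives, 17 held this call of Gsr and 11 that of Prdx1. None of the 11 oxidant response genes passed between NR-treated aged and young HSC by the edgeR quasi-likelihood test.

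Of 12 genes of the IL-6 and STAT3 response, 5 were higher and 1 lower in aged than in young HSC, with a median of 0.33 against -0.03 for all genes (9.68% of all genes were higher and 9.63% lower). Cebpd rose by 1.42 (adjusted p = 0.028, edgeR quasi-likelihood test) and Bcl3 by 1.14 (adjusted p = 0.0103). Cebpd rested on only 4 to 15 counts per young library. Stat3, the transcription factor itself, rose by 0.48 in aged (adjusted p = 0.00187) and by 0.54 in NR-treated aged HSC (adjusted p = 0.00155) against young HSC, with 0.06 between the aged groups (adjusted p = 0.718). In NR-treated aged against aged HSC 4 were lower, among them Fos at -1.42 (adjusted p = 0.0103) and Cebpb at -0.96 (adjusted p = 0.0211). Against young HSC, 1 was higher and 1 lower in NR-treated aged HSC. Of the 34 calls in these 5 lists over the 3 comparisons, 11 held under every alternative and 16 were lost without young 1 and 5. Calls over all genes also fell without these libraries, from 3120 to 1862 in aged against young HSC. They fell from 1303 to 1084 in NR-treated aged against aged and from 722 to 583 in NR-treated aged against young HSC. The 11 listed calls that held were Slc31a1, Slc25a37, Tsc22d3, Prdx1 and Stat3 in aged against young, Commd1, Slc25a37, Tsc22d3, Dusp1 and Fos in NR-treated aged against aged, and Stat3 in NR-treated aged against young HSC. Markers of neutrophils and erythroid cells were lower in NR-treated aged HSC beside these genes, and their part in the counts was not tested.

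The nearest neighbours of the metallothioneins in the table did not pass the test in any comparison. Nup93, which begins 34237 bases beyond Mt1, was at 25.8 ± 5.96 CPM in the young group and 29.8 ± 2.56 CPM in the aged group (SD, n = 5 each; log2 difference 0.23, adjusted p = 0.445, edgeR quasi-likelihood test). Bbs2, which ends 73736 bases before Mt2, was at 7.79 ± 2.36 and 12.5 ± 2.77 CPM (log2 difference 0.70, adjusted p = 0.0584). Ogfod1 and Herpud1, farther out, differed by -0.16 (adjusted p = 0.675) and 0.25 (adjusted p = 0.291).

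The genes most alike to the metallothioneins were ranked by the correlation of their log2 CPM with the mean of Mt1 and Mt2 over the 15 libraries, among the 10092 genes that averaged 5 CPM or more. Mt1 and Mt2 themselves correlated with r = 0.994. The highest values belonged to Nupr1 (r = 0.986), a stress-induced transcriptional regulator, Sult1a1 (r = 0.985), a sulfotransferase, Trim47 (0.978), Clca3a1 (0.974), Enpp5 (0.971), Matn4 (0.971), Jam2 (0.971), Enpp4 (0.97), Klrb1c (0.969) and Clec1a (0.969). A low level in young HSC is what this ranking favours, so it is no finding about these genes. Matn4 (1.56 CPM in young, 14.9 in aged and 14.4 in NR-treated aged HSC) reached the average of 5 CPM only through the groups where it was high. Nupr1 was at 54.3 ± 14.6 CPM in young, 677 ± 104 in aged and 555 ± 54.1 in NR-treated aged HSC, and Sult1a1 at 49.8 ± 10.5, 530 ± 53.2 and 353 ± 50.5 CPM (SD, n = 5 each). With rank correlation in place of Pearson's r, 2 of these 10 genes were among the first 10.

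**Figure D5:**
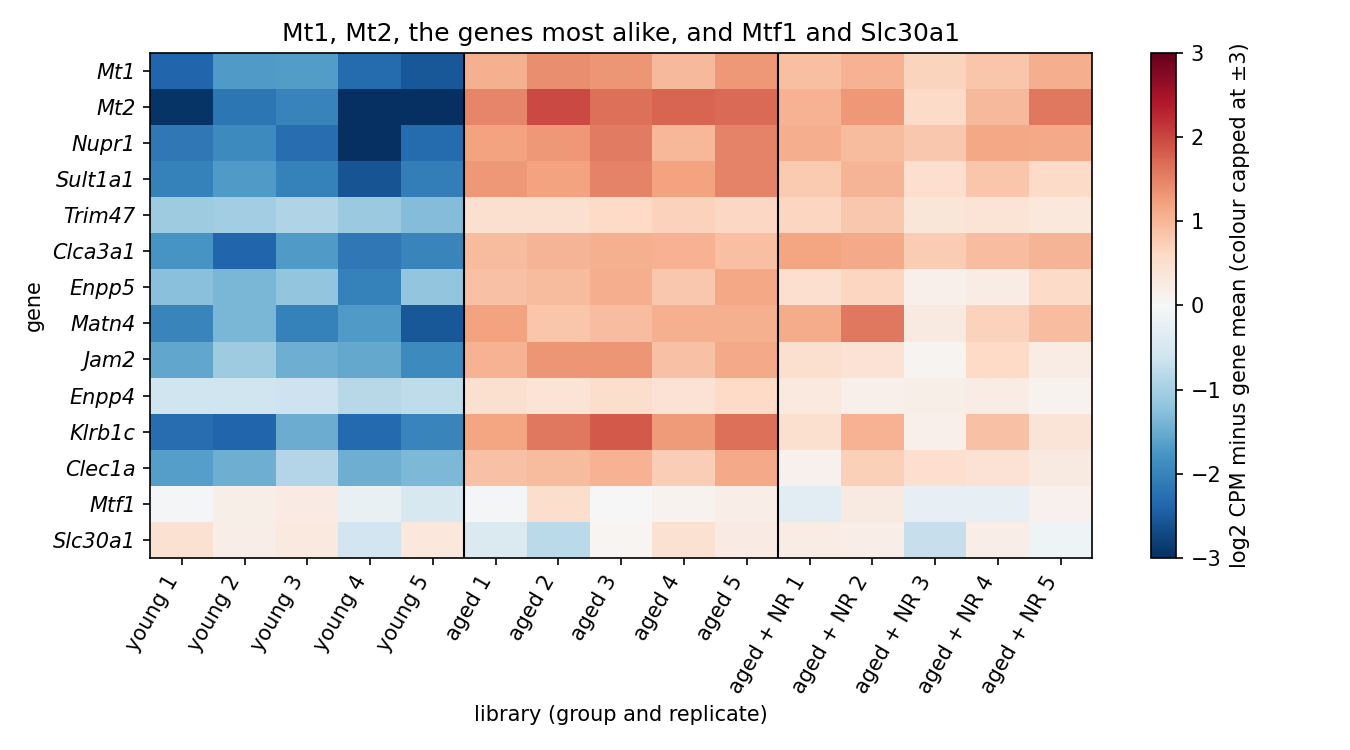
Log2 CPM of Mt1, Mt2, the 10 genes most alike to them, Mtf1 and Slc30a1 in each of 15 libraries, as the difference from the gene's mean over all libraries (colour capped at 3 in each direction); vertical lines part the groups. Mt1, Mt2 and the 10 genes are below their means in all 5 young libraries, whereas Mtf1 and Slc30a1 show no such block.

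Within groups the likeness fell on other genes. On deviations from the group means, Mt1 and Mt2 still moved together (r = 0.881), and the genes most alike were Sap30bp (0.92), Pdcd10 (0.917), Dcaf11 (0.887), Fam173a (0.883) and Sephs1 (0.879). Mtf1 followed the metallothioneins within groups with r = 0.818, a value that 10 of the 10092 genes reached, Mtf1 included, against a median of 0.0211 and quartiles of -0.245 and 0.275. Over all 15 libraries its r was 0.345, which 2642 genes reached. Young 2 and young 3, aged 2, and NR-treated aged 2 and 5 held the highest levels of their groups for Mt1 and also for Mtf1. Slc30a1 gave r = 0.202 within groups and -0.212 over all libraries. These values are descriptions over 15 libraries that share depth and composition within each library, and no p is attached to them.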

How the data were processed

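The authors aligned 72-base reads to GRCm38 with STAR 2.4.2a, removed reads with duplicated UMIs (10 bases), used featureCounts with the exons of GENCODE genes, and deposited raw, unnormalised counts for each gene, keeping genes with more than 5 reads and 2 CPM in at least 2 samples (16154 genes). Whether strand was used in counting is not given in the sources used here. The table is 3′ biased, so levels are compared between samples and not between genes. Groups were taken from the sample titles, and 0 columns were left unmapped.

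Here, CPM were computed on effective library sizes (TMM) and differences came from edgeR 4.0.16 in R 4.3.3, from a single model over all 15 libraries with a term for group. Its quasi-likelihood test was adjusted by Benjamini-Hochberg across 16154 genes. A gene was called at an adjusted p under 0.05. Intervals on log2 differences are 95% from the SE, and shares have exact 95% binomial intervals. Log2 CPM for the likeness ranking used a prior count of 2. Positions came from GENCODE M21, a later release than the authors used on the same build, and promoter windows from RefSeq.

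The members and the lists were chosen with earlier results of these data known. Named genes were the 4 members, each measured metallothionein and zinc transporter, and at most 4 called genes of each other list by size of change. The regulator genes Nr3c1, Nfe2l2 and Stat3 were named besides. The 10 genes most alike over all libraries, the 5 within groups and 2 neighbours on each side completed the named genes. Alternatives were the likelihood ratio test, DESeq2 1.42.0, limma-voom (3.58.1), only the 2 groups compared, library totals, DESeq2's size factors, at least 10 counts in every library, thinned counts, a replicate block, leaving out young 1 and 5, and each library left out in turn. Replicate numbers did not pair the samples (deviations of same-numbered libraries correlated by 0.00213 on average, from -0.27 to 0.133).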

Additional observations from a re-analysis of the deposited data

Results flagged for a closer look

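A search for single libraries that stood far from the other 4 of their group by Dixon's criterion on log2 CPM covered the zinc genes, the metallothioneins and the share of Mt2, and chance alone marks about 1 in 20 groups. Slc30a1 was at 4.72 CPM in young 4 (13 counts) against 8.44 to 10.2 CPM in the other young libraries. Slc39a3 was at 12.5 CPM in aged 5 against 15.6 to 16.7 CPM, and Slc39a9 was at 31.6 CPM in aged 4 against 25.4 to 26.9 CPM in the other aged libraries. Slc39a13 was at 19.7 CPM in young 2 (49 counts) against 26.0 to 28.8 CPM. Slc39a14 was at 5.44 CPM in NR-treated aged 3 (14 counts) against 8.35 to 9.53 CPM in the other NR-treated libraries. In all, 5 of 63 groups tested stood out in this way, and none of them was a group of Mt1, Mt2 or Mtf1.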

How the results depend on the processing

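The fitted differences of Mt1 and Mt2 kept their direction under every alternative that gave a value. The filter of at least 10 counts in every library left no value for Mt2 and Slc30a1. Neither Mtf1 nor Slc30a1 passed the threshold under any alternative run. Mtf1 stayed positive between aged and young HSC (0.053 to 0.38) and negative between NR-treated aged and aged HSC (-0.30 to -0.067). Slc30a1 stayed negative between NR-treated aged and young HSC (-0.36 to -0.017). In the other comparisons of these genes the sign of the small difference was not stable. For Slc30a1 between aged and young HSC it was 0.027 without young 1 and 5, and between NR-treated aged and aged HSC it was 0.11 on library totals and -0.16 to 0.11 with each library left out in turn. For Mtf1 between NR-treated aged and young HSC it was 0.012 with limma-voom, 0.16 on thinned counts and -0.12 to 0.063 with each library left out. The number of zinc genes called between aged and young HSC was 0 on library totals, on thinned counts and without young 1 and 5, and 0 to 2 with each library left out (2 without young 1 or young 2, 0 without aged 5). Between NR-treated aged and aged HSC it was 1 with the likelihood ratio test, DESeq2, limma-voom, only the 2 groups compared or library totals, and 0 to 1 with each library left out (1 without aged 1). Between NR-treated aged and young HSC it was 0 on thinned counts and without young 1 and 5, and 0 to 1 with each library left out (0 without NR-treated aged 4). Thinning and leaving out libraries lower the counts or samples tested, and for the other settings the cause was not tested. On library totals 29.1% of the genes called between aged and young HSC were higher, against 50.1% in the reported fit, and between NR-treated aged and aged HSC 78.4% against 48.1%. With the replicate block the difference of Mt1 between aged and young HSC was 3.33 and that of Mt2 was 4.61, and the block changed no call of these genes or of the zinc list's count. The 6 to 16 counts of Mt2 in young libraries and the 3 counts of Slc30a1 in aged 2 limit the precision of both genes.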
